A study of Homo sapiens with 6 samples.

Results

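CALB1, VSNL1, PCP4, DAB2, AGTR1, CALN1 and ANO4 are genes used to tell the zona glomerulosa from the rest of the adrenal cortex, and none of them encodes an enzyme of steroid synthesis. They were taken by symbol, as every probe set that the platform annotation maps to them, which gave 7 of 19775 named genes and 20 of 54613 probe sets. DAB2 had 7 probe sets, CALN1 and ANO4 had 3 each, CALB1, VSNL1 and AGTR1 had 2 each, and PCP4 had 1. None of the 20 lists a further gene. Probe sets of 1 gene measure overlapping transcripts and are not independent of each other.

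The zona glomerulosa is the outermost layer of the adrenal cortex and makes aldosterone, the hormone that retains sodium. Its cells respond to angiotensin II and to extracellular potassium, and both act by raising calcium inside the cell. Several of the genes described here encode proteins that bind calcium or the calcium sensor calmodulin, and AGTR1 encodes the angiotensin II receptor itself.

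Expression was measured in H295R/TR SF-1 cells, a line made from the human adrenocortical carcinoma line H295R in which doxycycline switches on extra steroidogenic factor-1 (SF-1, the nuclear receptor encoded by NR5A1). All arrays therefore come from 1 engineered line, which carries its own endogenous SF-1 and the regulated transgene in both groups. There were 3 arrays labelled basal, from cells kept for 72 hours without doxycycline, and 3 labelled Dox, from cells given doxycycline at 1 µg/mL for the same 72 hours, both in DMEM/F12 medium with NuSerum and ITS+ supplement. The comparison asks what a higher dose of SF-1 did to these genes. Arrays are named here by their label and their order of deposition (basal 1 to 3, Dox 1 to 3), and the names claim no more than the label does.

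The arrays did not group by label. The library labelled Dox 1 differed from the library labelled basal 1 by 0 probe sets of more than 2-fold, with a standard deviation of their differences of 0.134 on the log2 scale, and Dox 2 differed from basal 3 by 0 such probe sets and 0.149. Arrays that carry the same label differed by 0.258 to 0.452 on that measure. Basal 2 and Dox 3 had narrower overall distributions than the other 4 arrays (standard deviations of 2.36 and 2.37 against 2.43 to 2.44), and are called array set 2 here, with the other 4 as array set 1. The probe set of NR5A1 read 5.84, 5.92 and 6.30 on the basal arrays and 5.55, 6.21 and 6.41 on the Dox arrays, so the targeted gene's probe set did not separate the labels either. Whether this probe set detects the transgene is not given in the sources used here. The arrays are therefore read through 2 comparisons. Differences of single genes in the lists and marker sets are from the 4-array comparison unless they are called labelled. The labelled comparison uses all 6 arrays, and the 4-array comparison leaves out basal 3 and Dox 1, sets Dox 2 and Dox 3 against basal 1 and basal 2, and compares within array sets. The 4 arrays were chosen with earlier results of these data known and leave 1 residual degree of freedom before the variance is moderated across probe sets, so its p-values are no independent evidence. The difference Dox minus basal of NR5A1 was 0.03 ± 0.24 (SE) by label and 0.43 ± 0.14 in the 4 arrays. It was called in neither.

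Markers of the adrenal cortex ran from near the median signal to well above it. Of 9 genes of adrenal cortex identity, 8 were measured and none lay below the median signal on every array. MC2R lay above it on 1 array, HSD3B2 on 4 and NR5A1 on 5. STAR, CYP11A1, CYP17A1, FDX1 and SCARB1 lay above it on all 6. STAR, which brings cholesterol into mitochondria, read 10.73 to 11.59, where the medians of the arrays were 5.56 to 5.60. Of 5 adrenal medulla markers measured, the catecholamine enzymes TH and DBH lay below the median on all 6 arrays, and the granule proteins CHGA and CHGB and the enzyme PNMT lay above it on all 6, and these 5 were named after their values were seen. CYP11B2, the aldosterone synthase that defines glomerulosa cells, read 6.48, 5.58 and 6.31 on the basal arrays and 6.21, 6.34 and 5.76 on the Dox arrays, close to the median signal. The name zona glomerulosa describes the gene list here, and how far the cells resemble that zone was not tested.

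Of the 20 member probe sets, 15 lay above the median of the array on all 6 arrays, 4 lay below it on all 6, and 1 (DAB2, 232898_at) crossed it. By label, 0 of 20 passed an adjusted p of 0.05 in limma, against 0% of all probe sets, and 0 of 20 passed an unadjusted p of 0.05, a threshold that 373 of all 54613 probe sets passed. The difference Dox minus basal was below 0 in 18 of 20, beside 27612 of all 54613 probe sets. Its median was -0.15 log2 units over the members, where the median over all probe sets was -0.0015. In no member did the 2 groups separate, beside 2.07% of all probe sets with every Dox array below every basal array and 1.74% with every Dox array above.

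In the 4-array comparison, 5 of 20 member probe sets were lower in Dox by adjusted p (25%), in 3 genes, against 2.09% of all probe sets, and 0 were higher. Over both directions 4.15% of all probe sets were called. These shares include dim probe sets. With dim probe sets left out, 8 of 16 member probe sets were called, beside 2763 of all 27274. RNA came from bulk cells, so fewer cells expressing a gene and less RNA per cell cannot be told apart. The 5 lower member probe sets were both of CALB1, 2 of DAB2 and 1 of CALN1. In the same fit 19 of 20 lay below 0, beside 50.9% of all probe sets, and a median of -0.34, beside -0.0033. Both within-set differences were negative in 14 of 20, beside 29.1% of all. The calls rest on the choice of arrays. When basal 1 and Dox 2 were left out in place of basal 3 and Dox 1, 0 of 20 members and 0 of all probe sets passed, with 0 and 518 at an unadjusted p under 0.05.

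**Figure D1:**
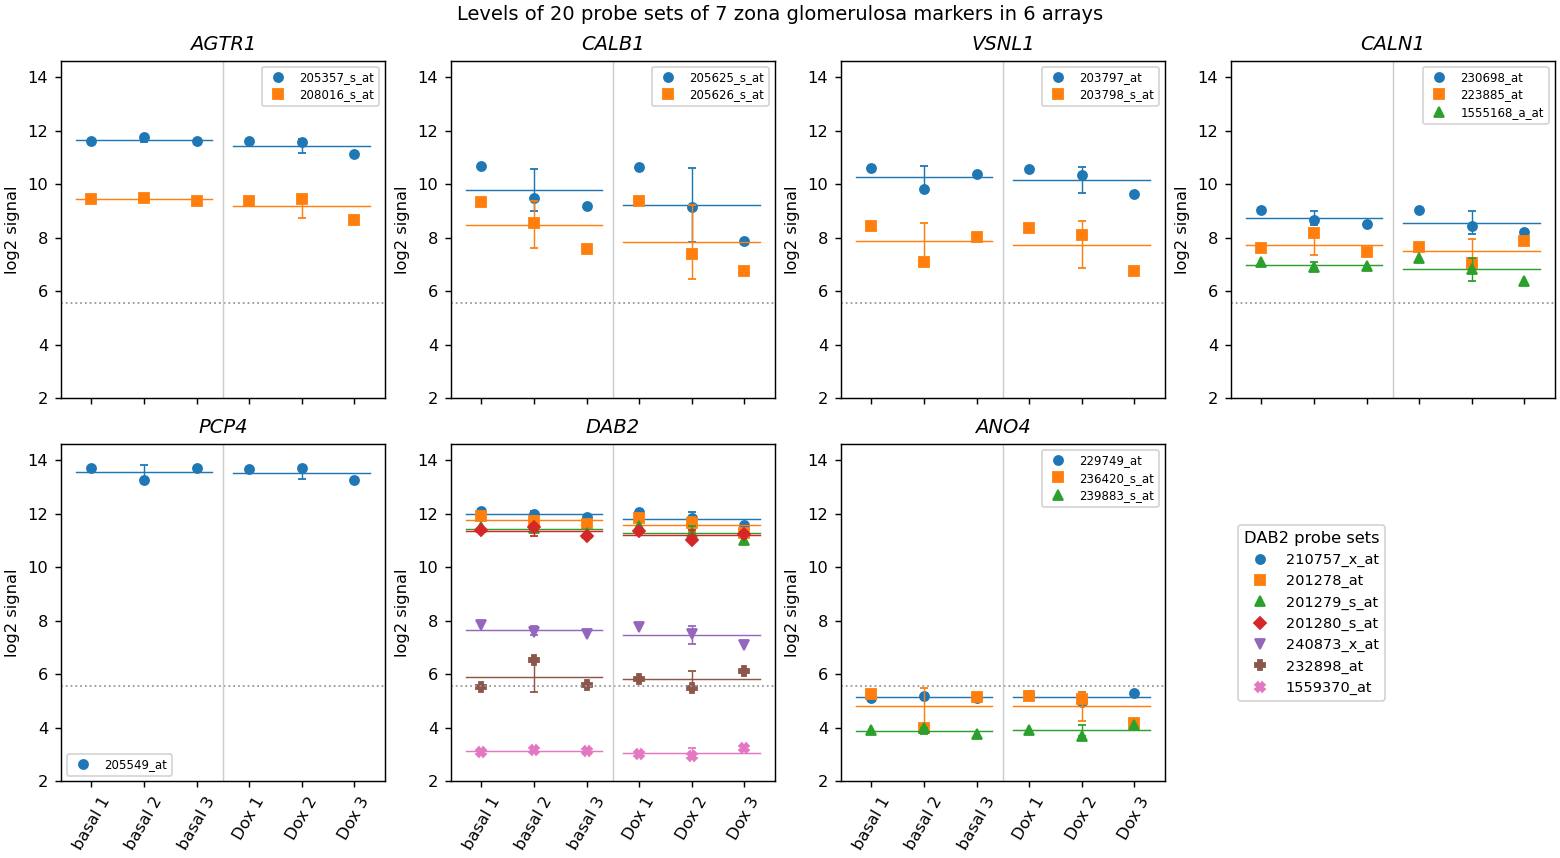
Log2 signal (vertical axis) of the 20 probe sets of the 7 genes on each of the 6 arrays, basal on the left and Dox on the right of each panel. Each point is 1 array, each horizontal line with its bar is the mean of 3 arrays with its SD, and the dotted line is the median of all values, 5.58. CALB1 spans the widest range of any panel's brightest probe set, from 7.87 to 10.68, and the ANO4 points lie below the dotted line.

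AGTR1 is the type 1 angiotensin II receptor, a Gq-coupled receptor through which angiotensin II drives aldosterone synthesis. Its probe set 205357_s_at read 11.63, 11.76 and 11.60 on the basal arrays and 11.61, 11.58 and 11.14 on the Dox arrays. Dox 3 was the lowest of the 6 and the groups overlapped at 11.60 to 11.61. The labelled difference was -0.22 ± 0.15 (SE). In the 4 arrays it was -0.33 ± 0.12, with a 95% interval of -0.58 to -0.08 and an adjusted p of 0.171. The second probe set, 208016_s_at, read 9.45, 9.48 and 9.37 against 9.39, 9.46 and 8.66, again with Dox 3 alone at the bottom. Its 4-array difference was -0.40 ± 0.16, with an adjusted p of 0.235. Almost all of it lay in array set 2, where Dox 3 minus basal 2 was -0.81, while Dox 2 minus basal 1 was 0.01. The receptor was therefore not called in either comparison, and 1 library, Dox 3, carried the difference. Without Dox 3 the labelled differences of the 2 probe sets were -0.07 and -0.0086.

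CALB1 encodes calbindin, a protein with EF-hand loops that buffers free calcium. It had the largest differences of the 7 genes. Probe set 205625_s_at read 10.68, 9.50 and 9.18 on the basal arrays and 10.65, 9.15 and 7.87 on the Dox arrays. Basal 1 and Dox 1 were high and nearly equal, basal 3 and Dox 2 were lower and nearly equal, and Dox 3 was lowest. The groups overlapped over most of their range, with means of 9.79 ± 0.79 and 9.22 ± 1.39 (SD, n = 3), and the labelled difference was -0.57 ± 0.70. Leaving out Dox 3 turned it to 0.11, and leaving out Dox 1 took it to -1.28. In the 4 arrays the level was 2.99-fold lower in Dox, a log2 difference of -1.58 ± 0.11 with a 95% interval of -1.82 to -1.34 and an adjusted p of 1.03e-06 by limma.

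The second CALB1 probe set, 205626_s_at, read 9.34, 8.54 and 7.59 on the basal arrays and 9.38, 7.38 and 6.74 on the Dox arrays. As in the first probe set, basal 1 and Dox 1 were highest and Dox 3 was lowest, and the groups overlapped. The labelled difference was -0.66 ± 0.72. In the 4 arrays it was -1.88 ± 0.13, 3.68-fold lower, with an adjusted p of 6.86e-07. Both pairs of arrays gave the difference at a similar size. Dox 2 minus basal 1 was -1.53 for the first probe set and -1.96 for the second, and Dox 3 minus basal 2 was -1.63 and -1.80. These were 2 of the probe sets at least 2-fold lower at an unadjusted p under 0.05, a group that held 0.361% of all probe sets and no other member. The labels left out of that comparison run the other way, since Dox 1 was above basal 3 by 1.46 and 1.79. With basal 1 and Dox 2 left out instead, the differences were -0.08 and -0.0048, and neither was called. Within a label the arrays also differed widely. In the first probe set basal 2 lay below basal 1 by a difference of -1.18 and above basal 3, and Dox 3 lay below Dox 2 by a difference of -1.28.

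VSNL1 encodes visinin-like 1, a neuronal calcium sensor that moves to membranes when it binds calcium. Probe set 203797_at read 10.61, 9.81 and 10.37 on the basal arrays and 10.56, 10.33 and 9.63 on the Dox arrays. The 2 lowest values belonged to basal 2 and Dox 3, the arrays of set 2, and the groups overlapped. The labelled difference was -0.09 ± 0.29, and the 4-array difference was -0.23 ± 0.10, with an interval of -0.45 to -0.0062 and an adjusted p of 0.342. Probe set 203798_s_at read 8.46, 7.09 and 8.04 against 8.37, 8.11 and 6.76. It too was lowest in basal 2 and Dox 3. Its 4-array difference was -0.34 ± 0.13, with an adjusted p of 0.214. The mean of array set 2 lay below that of set 1 by a difference of -0.75 in the first probe set and of -1.32 in the second. For VSNL1 the difference between array sets was thus larger than either difference between labels.

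CALN1 encodes calneuron 1, a calcium-binding protein of the calmodulin family that sits on the Golgi membrane. Probe set 230698_at read 9.04, 8.66 and 8.52 on the basal arrays and 9.05, 8.42 and 8.21 on the Dox arrays. Basal 1 and Dox 1 were highest, Dox 3 was lowest, and the groups overlapped. The labelled difference was -0.18 ± 0.25. In the 4 arrays it was -0.53 ± 0.12, 1.45-fold lower, with an interval of -0.79 to -0.27 and an adjusted p of 0.0210 by limma. The 2 within-set differences were -0.62 and -0.45. With basal 1 and Dox 2 left out instead, the value was 0.05.

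The other 2 probe sets of CALN1 lay in the same direction in the 4 arrays without passing the threshold. Probe set 223885_at read 7.60, 8.17 and 7.46 against 7.65, 7.05 and 7.87. Here the arrays of set 2 were the highest of each label, and the 4-array difference was -0.43 ± 0.13 with an adjusted p of 0.106. Probe set 1555168_a_at read 7.10, 6.92 and 6.93 against 7.26, 6.82 and 6.39, with a 4-array difference of -0.40 ± 0.14 and an adjusted p of 0.155. The 3 probe sets thus had fitted differences of -0.53 to -0.40, and 1 of 3 was called.

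PCP4 encodes a small protein with an IQ motif that binds calmodulin and alters how fast calmodulin takes up and releases calcium. Its only probe set, 205549_at, read 13.69, 13.26 and 13.71 on the basal arrays and 13.66, 13.71 and 13.24 on the Dox arrays. Basal 2 and Dox 3 were the low arrays, below set 1 by a mean difference of -0.44, and the other 4 arrays lay within 13.66 to 13.71. The labelled difference was -0.01 ± 0.17. The 4-array difference was 0.0028 ± 0.07, with an interval of -0.14 to 0.15 and an adjusted p of 0.995. A change of more than 0.15 log2 units in either direction lay outside that interval, and PCP4 was the member with the narrowest one. PCP4 was also the member whose fitted difference in the 4 arrays was above 0.

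DAB2 encodes an adaptor protein that links cell-surface cargo to clathrin-coated pits and also takes part in signalling by transforming growth factor beta. Probe set 210757_x_at, the brightest of 7, read 12.10, 11.98 and 11.87 on the basal arrays and 12.07, 11.82 and 11.57 on the Dox arrays. Basal 1 and Dox 1 were highest, Dox 3 was lowest, and the groups overlapped. The labelled difference was -0.16 ± 0.14. In the 4 arrays it was -0.34 ± 0.09, 1.27-fold lower, with an interval of -0.53 to -0.16 and an adjusted p of 0.0362. Probe set 201278_at gave nearly the same picture, with 11.91, 11.72 and 11.63 against 11.85, 11.65 and 11.29. Its 4-array difference was -0.35 ± 0.09, with an adjusted p of 0.0404. These 2 calls were small, and both sat close to the threshold.

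The next bright DAB2 probe sets had similar sizes and did not pass. Probe set 201279_s_at had a 4-array difference of -0.34 ± 0.09 and an adjusted p of 0.0616, and 201280_s_at had -0.30 ± 0.09 and 0.0923. Probe set 240873_x_at, with levels of 7.10 to 7.83, had -0.40 ± 0.13 and 0.134. The remaining 2 had low signal. Probe set 232898_at read 5.51 to 6.54 and had -0.22 ± 0.15, and 1559370_at read 2.96 to 3.25 and had -0.04 ± 0.13.

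The promoters of the members were looked up in RefSeq (GRCh38.p14), where VSNL1, CALN1, DAB2 and ANO4 matched with 7 start sites among 35116 listed. The 250 bases before each start were searched on both strands for AAGGTCA, letters that SF-1 is known to bind, for its shorter core AGGTCA, for the cAMP response element TGACGTCA, and for 3 general promoter elements, the GC box GGGCGG, the CCAAT box and TATAAA. Shown are the starts of DAB2 (chr5:39424981-39425230, minus strand) and CALN1 (first chr7:72447144-72447393, second chr7:72337392-72337641, minus strand), since these are the called members with an entry, written 5′ to 3′ along the gene with matches in capitals.
DAB2: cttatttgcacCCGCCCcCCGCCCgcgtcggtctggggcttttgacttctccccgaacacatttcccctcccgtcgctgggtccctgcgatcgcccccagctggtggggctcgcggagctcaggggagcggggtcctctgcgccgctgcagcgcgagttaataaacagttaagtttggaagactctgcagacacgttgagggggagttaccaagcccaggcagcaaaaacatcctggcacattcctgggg
CALN1 first start: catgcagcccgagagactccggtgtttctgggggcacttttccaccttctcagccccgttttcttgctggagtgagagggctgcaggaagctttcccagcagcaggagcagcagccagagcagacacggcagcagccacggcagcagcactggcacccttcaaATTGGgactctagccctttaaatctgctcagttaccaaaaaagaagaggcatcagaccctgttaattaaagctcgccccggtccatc
CALN1 second start: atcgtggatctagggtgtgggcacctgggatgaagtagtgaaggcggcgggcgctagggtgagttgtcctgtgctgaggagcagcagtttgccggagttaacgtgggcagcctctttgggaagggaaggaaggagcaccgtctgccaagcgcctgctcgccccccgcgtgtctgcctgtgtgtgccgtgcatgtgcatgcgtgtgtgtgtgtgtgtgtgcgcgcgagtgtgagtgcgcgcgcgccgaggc
DAB2 held the GC box on the opposite strand (CCGCCC) at 2 places, beginning 239 and 232 bases before the start, and 42.6% of all promoters of this length held a GC box. The first CALN1 start held the CCAAT box on the opposite strand (ATTGG) 87 bases before the start, as 32% of all promoters held one. None of the 7 start sites held AAGGTCA, which was present in 3.44% of all promoters. None held its core AGGTCA (12.1% of all promoters, counting those with the longer form) or the cAMP response element (1.65%). The absence says only that these letters are not in this window.

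**Figure D2:**
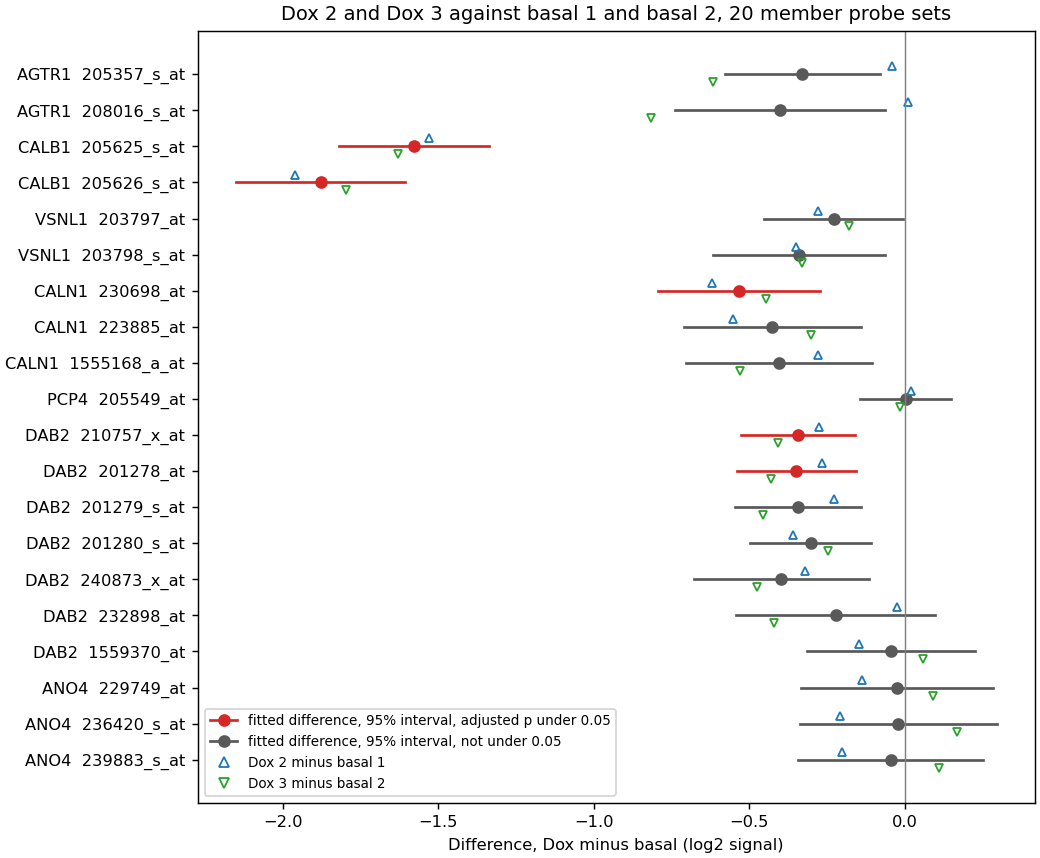
Difference Dox minus basal in log2 signal (horizontal axis) for the 20 probe sets in the 4-array comparison. Filled points with lines are fitted differences with 95% intervals, red where the adjusted p was under 0.05, and open triangles are the 2 within-set differences. The CALB1 probe sets stand at -1.58 and -1.88, and the other 18 lie between -0.53 and 0.0028.

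ANO4 encodes a member of the anoctamin family of membrane proteins, which holds calcium-activated chloride channels and lipid scramblases. All 3 probe sets lay below the median signal on every array. Probe set 229749_at ranged from 4.97 to 5.29 and 239883_s_at from 3.71 to 4.11. Probe set 236420_s_at read 5.27, 4.01 and 5.14 on the basal arrays and 5.18, 5.06 and 4.18 on the Dox arrays, with basal 2 and Dox 3 low as for VSNL1 and PCP4. The 4-array difference was -0.02 for 229749_at (adjusted p = 0.977), -0.02 for 236420_s_at (0.980) and -0.05 for 239883_s_at (0.947). The interval for 229749_at ran from -0.33 to 0.29, so changes smaller than these bounds were not detectable at this signal.

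The near-identical pairs can be read in the members too. Over the 20 probe sets the largest difference between Dox 1 and basal 1 was 0.30 in size, and between Dox 2 and basal 3 it was 0.41. Dox 1 was above basal 3 in 18 of 20, and the share over all probe sets was not counted. With basal 1 and Dox 2 left out in place of basal 3 and Dox 1, the differences of CALB1 and the called CALN1 probe set came close to 0 and those of the called DAB2 probe sets were both -0.10, while those of AGTR1 were -0.31 and -0.40, near the values above.

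CALB1 was the only member whose brightest probe set spanned at least 1 log2 unit over the arrays, so the genes most like it were sought among 13157 genes with a mean above the median of all values. Likeness was the root-mean-square difference over the 6 arrays after each gene was centred on its own mean. The nearest was FST (follistatin, which binds and blocks activin), at 0.155 log2 units. It read 11.53, 9.92 and 9.93 on the basal arrays and 11.47, 9.90 and 8.76 on the Dox arrays. ABLIM1, an actin-binding LIM protein, followed at 0.160, and MYOT, a protein of the muscle Z-disc, at 0.164. These were picked for sharing the pattern, so the values describe it and test nothing. In the 4 arrays they differed by -1.40, -1.30 and -1.37.

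**Figure D3:**
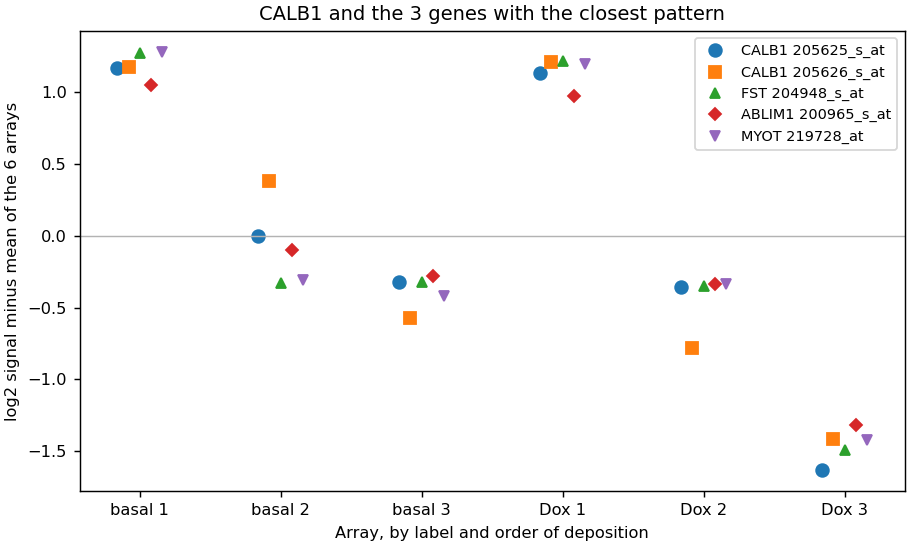
Log2 signal minus each gene's own mean (vertical axis) on the 6 arrays for CALB1 and the 3 genes most like it, FST, ABLIM1 and MYOT. All 4 are highest in basal 1 and Dox 1 and lowest in Dox 3, and the root-mean-square differences from CALB1 were 0.155, 0.160 and 0.164.

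Genes that work with the members were read through lists, each gene by its brightest probe set, with 3.27% of 19775 genes lower and 3.16% higher by adjusted p in the 4-array comparison and a median of -0.0062. By label, 0 genes of any list passed the threshold in limma, as for all genes, where 94 of 19775 had an unadjusted p under 0.05. Of the genes of aldosterone synthesis and its ion channels, 16 of 18 were measured, 4 were lower, 2 were higher, and the median was -0.09. KCNJ5, the inward rectifier potassium channel that sets the resting potential of glomerulosa cells, was lower by a difference of -0.68 ± 0.10 with an adjusted p of 0.00087, though its 6 probe sets ranged from -0.97 to -0.05. STAR was lower (-0.54 ± 0.09), as were the calcium channel subunit CACNA1C (-0.64 ± 0.13) and the adhesion molecule CADM1 (-0.48 ± 0.11, with its 6 probe sets from -0.59 to 0.12). The labelled differences were -0.23 ± 0.31 for KCNJ5, -0.17 ± 0.24 for STAR, -0.16 ± 0.29 for CACNA1C and -0.28 ± 0.16 for CADM1. On the arrays left out, Dox 1 was above basal 3 in each, at 10.33 against 9.66 for KCNJ5 and 11.53 against 10.97 for STAR. ATP1B1, a beta subunit of the sodium pump, was higher by 2.12 ± 0.14, and the T-type calcium channel CACNA1G by 0.87 ± 0.15. ATP1B1 read 10.90, 9.91 and 12.69 on the basal arrays and 10.93, 12.62 and 12.43 on the Dox arrays. Its highest array, basal 3, is left out of the 4-array comparison, and its labelled difference was 0.83 ± 0.74. The 5 probe sets of CACNA1G ranged from 0.01 to 1.00, and its labelled difference was 0.39 ± 0.30. CYP11B2 itself had a difference of 0.02 ± 0.15, and the calcium channel CACNA1D 0.25 ± 0.12 with an adjusted p of 0.375.

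Downstream of AGTR1, 24 of 29 genes of the angiotensin system and of angiotensin II signalling were measured. Of these 5 were lower, 3 were higher, and the median was -0.04. The lower ones with the smallest adjusted p were the nuclear receptor NR4A2 (-0.72 ± 0.15), RGS2, which shuts off Gq (-0.70 ± 0.11), and the phospholipase PLCB1 (-0.59 ± 0.12). The higher ones were the protein kinases PRKCA (1.33 ± 0.18), CAMK1 (0.70 ± 0.13) and CAMKK2 (0.54 ± 0.11). Other probe sets of PLCB1, PRKCA and CAMKK2 had differences of the opposite sign, the furthest being 0.23, -0.12 and -0.04. PRKCA read 7.39, 5.92 and 8.22 on the basal arrays and 7.32, 8.29 and 7.69 on the Dox arrays. Its labelled difference was 0.59 ± 0.56. By label NR4A2, RGS2 and PLCB1 differed by -0.17 ± 0.39, -0.25 ± 0.33 and -0.17 ± 0.39. CAMK1 and CAMKK2 differed by 0.22 ± 0.36 and 0.15 ± 0.26 by label.

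Wnt signalling is known to maintain the outer cortex, and all 16 genes of that list were measured. None was higher, 5 were lower, and the median was -0.27. LGR5, a receptor for R-spondins, was lower by a difference of -1.39 ± 0.13, the receptor TNFRSF19 by -1.03 ± 0.10, the ubiquitin ligase RNF43 by -0.98 ± 0.12, the Wnt antagonist SFRP1 by -0.82 ± 0.16, and the ligand WNT4 by -0.55 ± 0.11. LGR5 read 9.35, 7.23 and 7.91 on the basal arrays and 9.33, 7.81 and 5.98 on the Dox arrays. Basal 1 with Dox 1, and basal 3 with Dox 2, again lay close together, and basal 2 was below both basal arrays of set 1. The labelled difference of LGR5 was -0.46 ± 0.87. Those of TNFRSF19, RNF43, SFRP1 and WNT4 were -0.37 ± 0.40, -0.32 ± 0.40, -0.22 ± 0.71 and -0.22 ± 0.21. In all 5 genes Dox 1 was above basal 3, the arrays left out, as at 9.80 against 8.78 for RNF43. The 3 probe sets of WNT4 ranged from -0.55 to 0.14 and the 4 of SFRP1 from -0.82 to 0.03. The 2 of LGR5 were at -1.39 and -0.20, and the 3 of TNFRSF19 ranged from -1.03 to -0.46.

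Relatives of the members were read against the same shares of all genes, 3.27% lower and 3.16% higher. Of 20 EF-hand and calcium sensor relatives of VSNL1, CALN1 and CALB1, 1 was lower (CABP7, -0.80 ± 0.15), 0 were higher, and the median was 0.03. Of 3 IQ-motif relatives of PCP4, 1 was lower (GAP43, a calmodulin-binding protein of growing axons, -0.83 ± 0.14). The other probe set of CABP7 was at -0.10, and the 3 of GAP43 ranged from -0.83 to -0.06. By label CABP7 differed by -0.26 ± 0.34 and GAP43 by -0.27 ± 0.35. Of 9 other anoctamins and of 13 measured relatives and endocytic partners of DAB2, 0 were called, with medians of 0.03 and -0.09.

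**Figure D4:**
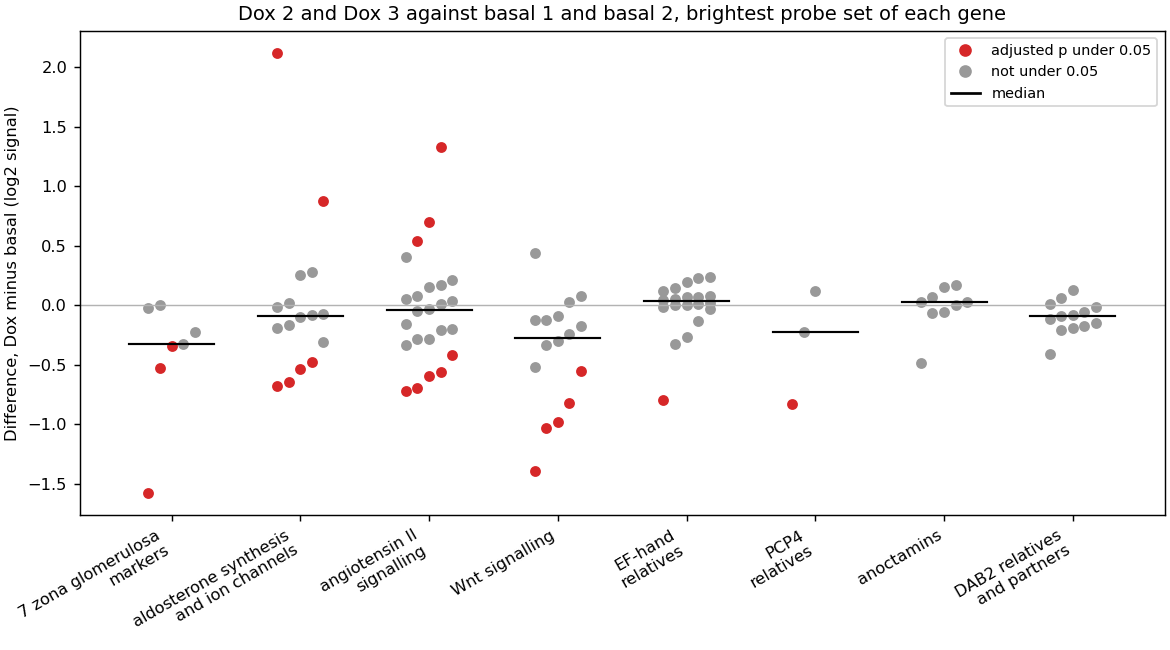
Difference Dox minus basal in log2 signal (vertical axis) in the 4-array comparison for the brightest probe set of every measured gene, with the 7 zona glomerulosa markers first and the 7 lists of related genes after them. Each point is 1 gene, red where the adjusted p was under 0.05, and each bar is a median, -0.33 for the 7 markers and -0.27 for the Wnt list, with ATP1B1 the highest point at 2.12.

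Markers of other cell types were read beside these results. Of 5 stroma, 5 endothelium and 3 blood markers measured, 0 were called in the 4-array comparison. Over all genes 3.27% were lower and 3.16% higher. Of these markers 2, 3 and 1 lay below the median signal on every array, so the lack of calls says little. Of 5 adrenal medulla markers, 1 was lower, CHGB (-0.75 ± 0.14), a protein of secretory granules, and the mean level of the 5 was 5.95 to 6.16 over the basal arrays and 5.73 to 6.19 over the Dox arrays. By label CHGB differed by -0.18 ± 0.60. The part of CHGB-expressing cells in the results for the 7 genes was not tested.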

How the data were processed

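RNA from 6 samples was hybridised to 6 arrays of 1 colour (HG-U133 Plus 2.0). The deposited log2 signals were made by the authors with GCRMA, per the submitters' processing notes, and whether all arrays were normalised in 1 run is not given in the sources used here. GCRMA compresses low signals. Precision is limited by having only 6 arrays. Of 54613 probe sets, 41091 carry 1 symbol in the platform annotation, 1801 carry several and 11721 carry none. Differences were fitted with limma 3.58.1 (R 4.3.3), using moderated variances that follow the mean signal, two-sided, over all probe sets. Benjamini-Hochberg adjustment was used with a threshold of 0.05. The fit was also run on simulated data in which every Dox array carried the set changes. That simulation held no near-identical arrays of opposite label, so it cannot speak to the labels here. The 4-array fit held the array set, found from the spread of each array, as a block. The study's methods call the 3 samples of each group biological replicates. The labelled p-values measure the spread between these arrays. Those of the 4-array fit measure only the spread left once the array set is taken out, moderated across probe sets. Levels of different probe sets were used to pick each gene's brightest, to place probe sets against the median signal, and in the mean of the medulla markers. They were not otherwise compared.

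The members and lists were chosen with earlier results of these data known. Named genes were the members, NR5A1, the called genes of each list (up to 6 by adjusted p), CYP11B2, KCNJ5, CACNA1D and WNT4, and the 3 genes most like a member whose brightest probe set spanned at least 1 log2 unit. Markers of the adrenal cortex and medulla were also named, called or not, after their values were seen. Alternatives were quantile normalisation, no trend, no dim probe sets, 1 probe set per gene, other blocks, other arrays, a 2-fold rule with an unadjusted p under 0.05, and leaving out each array.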

Additional observations from a re-analysis of the deposited data

How the results depend on the processing

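Depth is not a property of these arrays, and a signal below the median, as for ANO4, limits what could be seen. The 4-array call count over all probe sets, 2269, was 1383 with 1 probe set per gene, 480 under the 2-fold rule, and 0 with no block for the array set, with label style (how the titles are written) as the block, or with basal 1 and Dox 2 left out instead (1580, 1901 and 518 at an unadjusted p under 0.05). The 5 member calls became 3 with 1 probe set per gene, 3 with no trend, 8 without dim probe sets, 2 under the 2-fold rule, and 0 under each of the last 3 settings. Over all probe sets, 1764 of 54613 were called with no trend and 2763 of 27274 without dim probe sets. Beside the array set block, no paired analysis was possible because the labels number no replicates shared between the groups. The labelled comparison called 0 under every setting run.

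Some single values changed sign. With label style as the block, VSNL1 was at 0.17 (203797_at) and 0.34 (203798_s_at) and ANO4 236420_s_at at 0.61. With basal 1 and Dox 2 left out instead, VSNL1 203797_at was at 0.0052, CALN1 230698_at at 0.0452, ANO4 at 0.0939, 0.0999 and 0.136, and PCP4 at -0.0296. Quantile normalisation put PCP4 at -0.0028 in the 4 arrays and ANO4 236420_s_at at 0.0068 by label. The cause was not tested. Leaving out 1 array, the labelled difference ran from -1.28 to 0.11 for CALB1 205625_s_at, -0.32 to 0.18 and -0.50 to 0.38 for VSNL1, -0.394 to 0.0154 and -0.378 to 0.0573 for CALN1 223885_at and 1555168_a_at, -0.16 to 0.13 for PCP4, -0.26 to 0.25 for DAB2 232898_at, and -0.0511 to 0.113, -0.402 to 0.311 and -0.0713 to 0.127 for ANO4. The other 10 member probe sets kept their direction.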

Other observations

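Markers of the inner cortical zones were read in the same 4-array comparison. Of 4 zona fasciculata markers measured, 0 were called, with a median of -0.36. Of 4 zona reticularis markers, SULT2A1, the sulfotransferase that makes the sulphate of dehydroepiandrosterone, was higher by 0.68 ± 0.11 and AKR1C3, a ketosteroid reductase, was lower by a difference of -0.72 ± 0.09. HSD3B2, the dehydrogenase needed for both aldosterone and cortisol, was lower by a difference of -1.40 ± 0.18. Its highest array was basal 2, at 7.89, and the other 5 read up to 6.49. By label the differences were 0.27 ± 0.25 for SULT2A1, -0.30 ± 0.28 for AKR1C3 and -0.48 ± 0.66 for HSD3B2. The arrays left out ran the other way in each gene. Dox 1 was below basal 3 for SULT2A1, at 9.79 against 10.35. It was above basal 3 for AKR1C3, at 11.07 against 10.52, and for HSD3B2.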
